A study of Cricetulus griseus with 6 samples.

Results

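The citric acid cycle was followed in a culture experiment that removed putrescine from suspension cultures of CHO-K1, an established Chinese hamster ovary cell line. The genes were 9 enzymes or subunits named by symbol, namely Cs, Idh3a, Idh2, Ogdh, Dlst, Suclg1, Sucla2, Fh and Mdh2; no measured value enters the rule, but they were chosen with earlier results of these data known. All 9 were measured, each by 1 probe set, among the 14899 named genes and 29700 probe sets of the array. Putrescine at 1 mg/l was present in the serum-free medium of 3 flasks, and another 3 grew in that medium lacking putrescine, other polyamines and ornithine. Every flask was sampled on day 3 and hybridised to its own Affymetrix whole-transcript array. Nothing but the putrescine differed between the groups, per the labels, which call the flasks of a group biological replicates. One line in one medium was studied, so the values describe this line only.

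The citric acid cycle runs in the mitochondrial matrix, where acetyl-CoA is joined to oxaloacetate and oxidised to carbon dioxide. Its dehydrogenases pass electrons to the respiratory chain, and its intermediates leave for lipid, amino acid and heme synthesis and are replaced by entry reactions from pyruvate, glutamine and propionate. In proliferating cell lines much of the flow through the cycle serves such synthesis. Putrescine is the diamine from which spermidine and spermine are made, and CHO cells are known to depend on a supply of it or of ornithine because they lack arginase activity.

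Most cycle genes differed little between the groups. Of the 9 genes, 1 fell (Ogdh), 0 rose and 8 did not pass the test, which was limma on log2 signal with p-values adjusted over all probe sets and a threshold of 0.05. At an unadjusted p under 0.05 the counts were 2 lower and 1 higher. Over the whole array 24.4% of probe sets passed, 13.2% higher and 11.2% lower without putrescine, and among named genes brighter than the dim level 42.3% passed. That dim level, 4.05 on the log2 scale, is the median signal of 15 marker genes of differentiated tissues. Star, Fshr and Lhcgr among them are expressed in gonads. All 9 cycle genes lay above the dim level, at mean signals between 8.22 and 11.03. The cycle genes' share of 11.1%, which is 1 gene, was thus below either background in this fit. With a variance trend and robust moderation in limma, 2 of the 9 cycle genes fell and 1 rose, and 8064 probe sets passed over the array. The cycle genes' share was then not below that of all probe sets, so the order of the shares depended on the fit. Differences of the 9 cycle genes, without minus with putrescine, ran from -0.32 to 0.32 on the log2 scale with a median of -0.01. Their median absolute difference was 0.12 against 0.26 for named genes above the dim level. Those named genes were not matched to the cycle genes in signal. The cycle genes lay between the 79.5 and 98.2 percentiles of mean signal over all probe sets, and the part of signal level was not tested.

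The precision of the arrays bounds what could have been missed. Standard errors of the cycle genes' differences lay between 0.08 and 0.11, with n = 3 per group. The largest fold change inside any of their 95% intervals was 1.47-fold, for Mdh2. The groups did not overlap for 6 of the 9 genes (66.7%), against 37.5% over all probe sets and 59.5% of named genes above the dim level. Signal per array measures RNA relative to the other RNA in the sample, so less RNA per cell and fewer cells making it cannot be told apart.

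**Figure D1:**
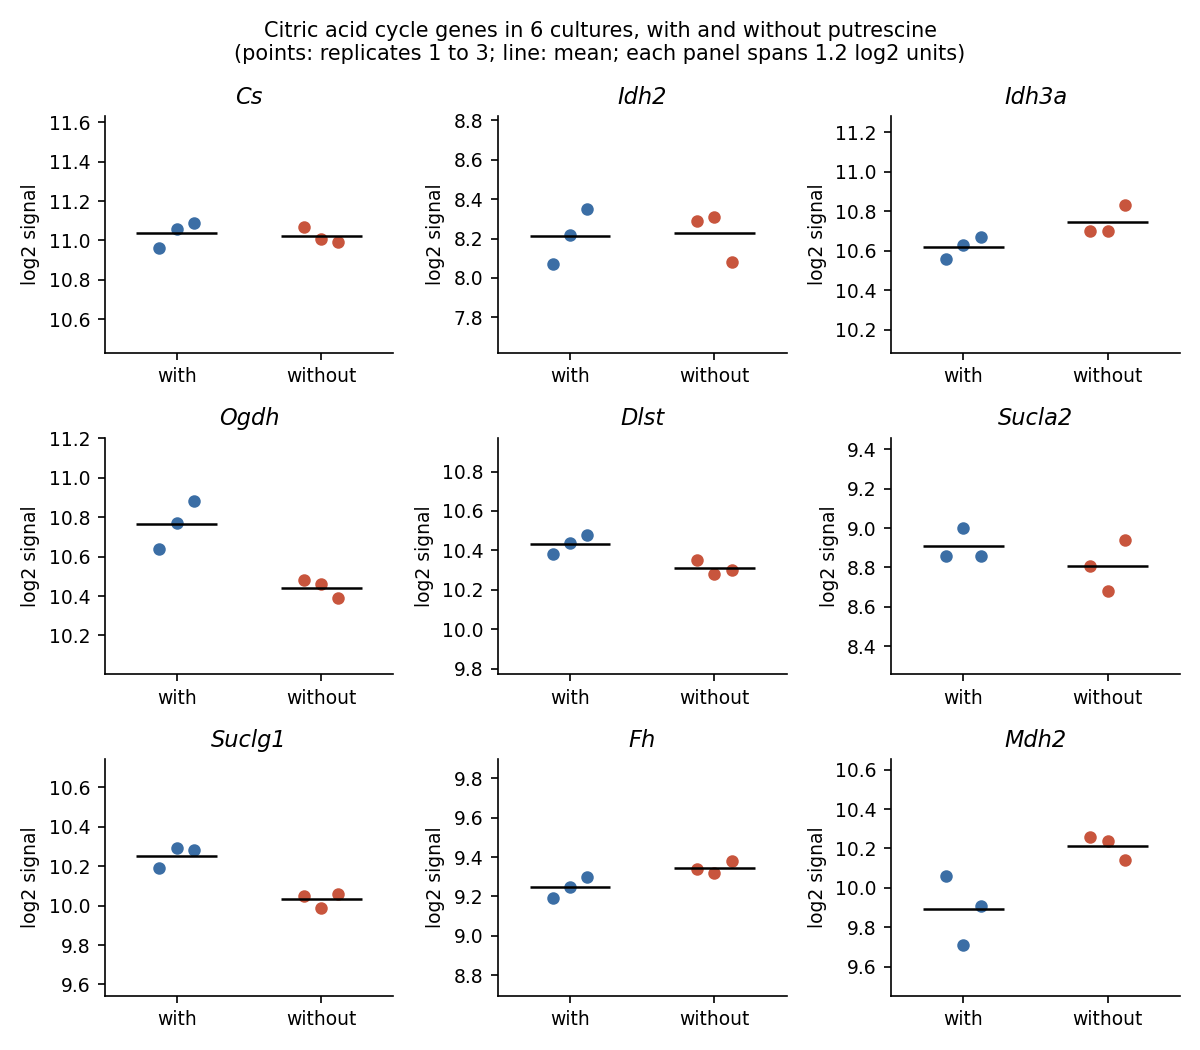
Log2 signal (vertical axes) of the 9 cycle genes in the 3 cultures with putrescine (blue) and the 3 without it (red), with group means as lines. Ogdh, Dlst and Suclg1 are lower in all cultures without putrescine, Idh3a, Fh and Mdh2 are higher in all of them, and Cs, Idh2 and Sucla2 overlap.

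The signal of the citrate synthase gene did not differ detectably. Citrate synthase, encoded by Cs (probe set 18022450), joins acetyl-CoA to oxaloacetate. With putrescine its log2 signal was 10.96, 11.06 and 11.09 in replicates 1 to 3, and without putrescine 11.07, 11.01 and 10.99. The groups overlapped, and the difference of -0.01 (SE 0.08) had a 95% interval from -0.20 to 0.17 (limma adjusted p = 0.937).

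Isocitrate is oxidised by an NAD-linked enzyme of 3 kinds of subunit, of which Idh3a encodes the catalytic one, and by a separate NADP-linked mitochondrial enzyme encoded by Idh2. Idh3a (probe set 18088488) read 10.56, 10.63 and 10.67 with putrescine and 10.70, 10.70 and 10.83 without. Every culture without putrescine was above every culture with it, but only by 0.03 at the nearest, and the difference of 0.12 (SE 0.08) did not pass the test (limma adjusted p = 0.358). Idh2 (probe set 17964148), at 8.07, 8.22 and 8.35 with and 8.29, 8.31 and 8.08 without putrescine, overlapped fully between the groups. Its difference was 0.01 (SE 0.11, 95% interval -0.23 to 0.26).

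The other subunits of the NAD-linked enzyme had differences of the opposite sign. Idh3b was at 10.64 ± 0.05 with and 10.52 ± 0.08 without putrescine (SD, n = 3), a difference of -0.11 (limma adjusted p = 0.408). Idh3g stood at 11.13 ± 0.02 and 10.95 ± 0.11, a difference of -0.18 (limma adjusted p = 0.185), and its groups did not overlap. Neither passed the test, and whether the subunits changed unequally was not tested.

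The fall in Ogdh was the only call among the 9 genes. Ogdh (probe set 18032474) encodes the component of the 2-oxoglutarate dehydrogenase complex that decarboxylates 2-oxoglutarate, a step under control by calcium and by its own products. Its log2 signal was 10.64, 10.77 and 10.88 with putrescine and 10.48, 10.46 and 10.39 without. All 3 cultures without putrescine were lower, and the gap of 0.16 between the groups was smaller than the spread of 0.24 among the cultures with putrescine. The mean was 10.76 ± 0.12 against 10.44 ± 0.05 (SD, n = 3), 1.25-fold lower (log2 difference -0.32, SE 0.09, limma adjusted p = 0.0327).

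That call was fragile. It was lost without no-putrescine replicate 1 (adjusted p = 0.0639), 2 (0.0762) or 3 (0.093) and without with-putrescine replicate 2 (0.0883) or 3 (0.113). It held without with-putrescine replicate 1, where the difference was -0.38 (adjusted p = 0.0265). Over all 11 alternatives its adjusted p ran from 0.00299 to 0.113 and the difference from -0.38 to -0.26, always downward.

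Dlst (probe set 18048582) encodes the succinyltransferase core of the same complex, which carries the lipoyl arm. It read 10.38, 10.44 and 10.48 with and 10.35, 10.28 and 10.30 without putrescine. The groups were separate by 0.03, and the difference of -0.12 (SE 0.08) did not pass (limma adjusted p = 0.329). Dld, the dihydrolipoyl dehydrogenase that this complex shares with pyruvate dehydrogenase, was at 9.47 ± 0.05 with and 9.65 ± 0.13 without putrescine (SD, n = 3), a difference of 0.18 (limma adjusted p = 0.222).

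All 3 measured subunits of succinate-CoA ligase, which makes succinate and a nucleoside triphosphate, had lower means without putrescine. Only Suclg2, the GTP-forming beta subunit, passed the test, at 10.17, 10.23 and 10.22 with and 9.79, 9.80 and 9.86 without putrescine. It was 1.31-fold lower (log2 difference -0.39, SE 0.08, limma adjusted p = 0.00651), and the gap between the groups was 0.31, wider than the spread of 0.07 or less inside either group. Its call held under all 11 alternatives, with adjusted p from 0.00025 to 0.0279.

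Suclg1 (probe set 18026580) encodes the alpha subunit that both forms of the ligase share. Its log2 signal was 10.19, 10.29 and 10.28 with and 10.05, 9.99 and 10.06 without putrescine. The groups did not overlap, and the difference of -0.22 (SE 0.08) missed the threshold (limma adjusted p = 0.0831). It passed after quantile normalization (0.0393), over probe sets above the dim level (0.0388) and with a variance trend and robust moderation in limma (0.0131). Sucla2 (probe set 17952810), the ATP-forming beta subunit, overlapped between the groups, at 8.86, 9.0 and 8.86 with and 8.81, 8.68 and 8.94 without putrescine (log2 difference -0.10, SE 0.10, limma adjusted p = 0.55).

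Succinate dehydrogenase links the cycle to the respiratory chain as complex II. Its flavoprotein gene Sdha was at 10.98 ± 0.03 with and 10.97 ± 0.06 without putrescine, and its iron-sulfur subunit gene Sdhb at 10.01 ± 0.03 and 9.99 ± 0.04 (SD, n = 3). Both differences were -0.02, with 95% intervals from -0.20 to 0.16 for Sdha and from -0.19 to 0.16 for Sdhb. Sdhc, which encodes a membrane anchor of the complex, read 9.70, 9.58 and 9.72 with and 10.03, 10.04 and 9.82 without putrescine. Its groups did not overlap, and the difference of 0.30 (SE 0.09) missed the threshold at limma adjusted p = 0.0523. Over the alternatives its adjusted p ran from 0.01 to 0.16.

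The last steps convert fumarate to malate and malate to oxaloacetate. Fh (probe set 18072420), fumarate hydratase, read 9.19, 9.25 and 9.30 with and 9.34, 9.32 and 9.38 without putrescine. The cultures without putrescine were all higher, by 0.02 at the nearest, and the difference of 0.10 (SE 0.08) did not pass (limma adjusted p = 0.438).

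Mdh2 (probe set 18063538), the mitochondrial malate dehydrogenase, had the same size of difference as Ogdh in the opposite direction. It read 10.06, 9.71 and 9.91 with and 10.26, 10.24 and 10.14 without putrescine. The groups were 0.08 apart, and the cultures with putrescine spread over 0.35, the widest range among the 9 genes. The difference of 0.32 (SE 0.11, 95% interval 0.08 to 0.56) missed the threshold (limma adjusted p = 0.059). It passed after centring each array on its median (0.0408), over probe sets above the dim level (0.0322), with a variance trend and robust moderation (0.0122) and without with-putrescine replicate 1 (0.0315), and without with-putrescine replicate 2 the difference was 0.23 (0.18).

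**Figure D2:**
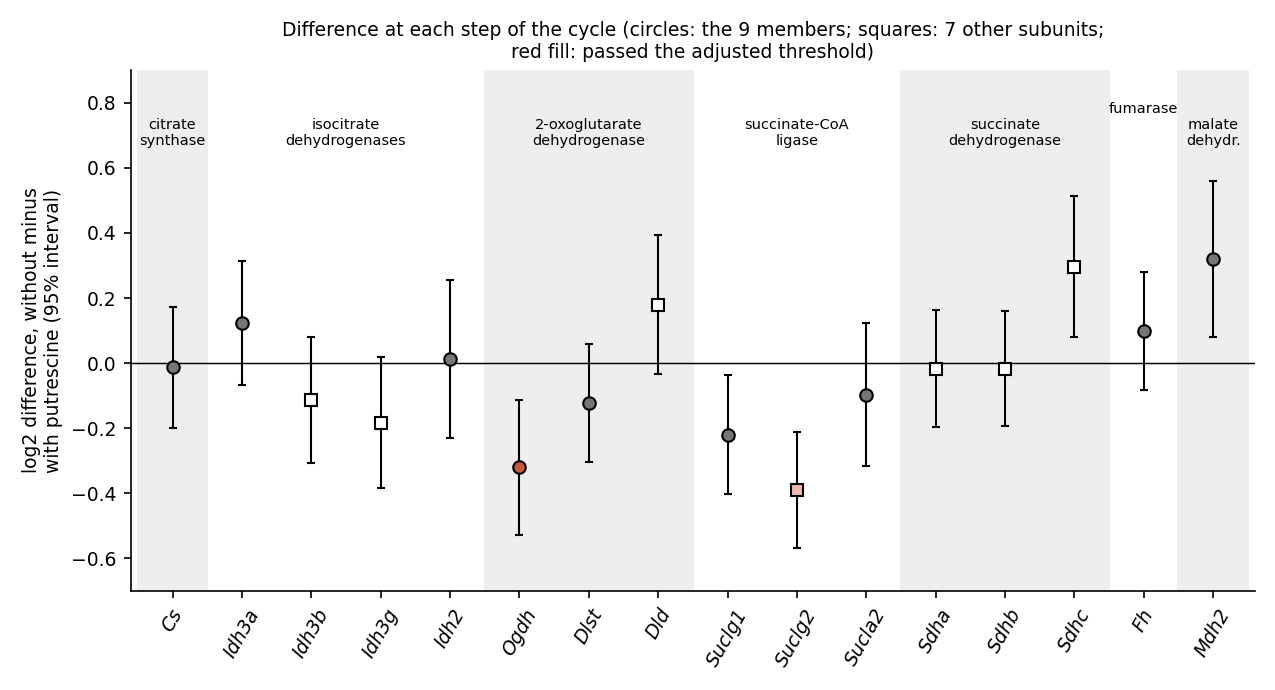
Log2 difference, without minus with putrescine (vertical axis, points), with its 95% interval (bars), for the measured cycle genes in the order of the reactions. Circles are the 9 cycle genes and squares the 7 other subunits. Only Ogdh (-0.32) and Suclg2 (-0.39) passed the threshold, and Sdhc and Mdh2 lie highest at 0.30 and 0.32.

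Of the 7 other measured subunits, 1 fell (Suclg2), 0 rose in limma (1 at an unadjusted p under 0.05) and 6 did not pass. Their median difference was -0.02, beside 0.007 for all probe sets. Their share of calls, 14.3%, which is 1 gene, was below the 24.4% of all probe sets and the 42.3% of named genes above the dim level in this fit. With a variance trend and robust moderation, 2 of the 7 fell and 1 rose, and 8064 probe sets passed over the array. Their share was then above that of all probe sets. The groups did not overlap for 4 of them (57.1%), near the 59.5% of named genes above the dim level.

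Within the group with putrescine, replicate 1 held the lowest value of the 3, or shared it, for 8 of the 9 cycle genes, Mdh2 being the exception. The mean of the 9 genes, each centred on its own mean over the arrays, was -0.04 in that culture, 0.01 in replicate 2 and 0.06 in replicate 3. Without putrescine it was 0.01, -0.03 and -0.02. All 6 averages thus lay between -0.04 and 0.06. Genes with differences of opposite sign cancel in such an average. The 3 named genes most alike to this average over the 6 arrays, by Pearson r among 14813 genes, were Znf804a (0.986), Pth2r (0.986) and Hhat (0.976). All 3 had signals below the dim level, at means of 2.58, 2.42 and 3.20.

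Because 2 probe sets on one array share its normalization, differences within arrays were also compared between the groups. A total of 5 pairs of cycle genes were tested by a two-sided exact permutation test over the cultures, in which 3 against 3 cannot give a p below 0.1. Ogdh minus Dlst, from one complex, was 0.26, 0.33 and 0.40 with putrescine and 0.13, 0.18 and 0.09 without. The groups did not overlap, and the change was -0.20 (exact p = 0.1, 0.25 adjusted over the 5 pairs). Cs minus Idh3a was also separate, at 0.42 ± 0.02 against 0.28 ± 0.11 (SD, n = 3; change -0.14, exact p = 0.1, adjusted 0.25). Without no-putrescine replicate 3 that change was -0.08.

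The remaining pairs overlapped between the groups. Sucla2 minus Suclg1, the beta and alpha subunits of the ATP-forming ligase, changed by 0.12 (exact p = 0.2). Fh minus Mdh2, the neighbouring last steps, had a change of -0.22 (exact p = 0.2), and this was -0.33 without with-putrescine replicate 1 and -0.13 without with-putrescine replicate 2. Idh3a minus Idh2 had a change of 0.11 (exact p = 0.7), which was -0.01 without no-putrescine replicate 3. In this design no pair could pass a threshold of 0.05.

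**Figure D3:**
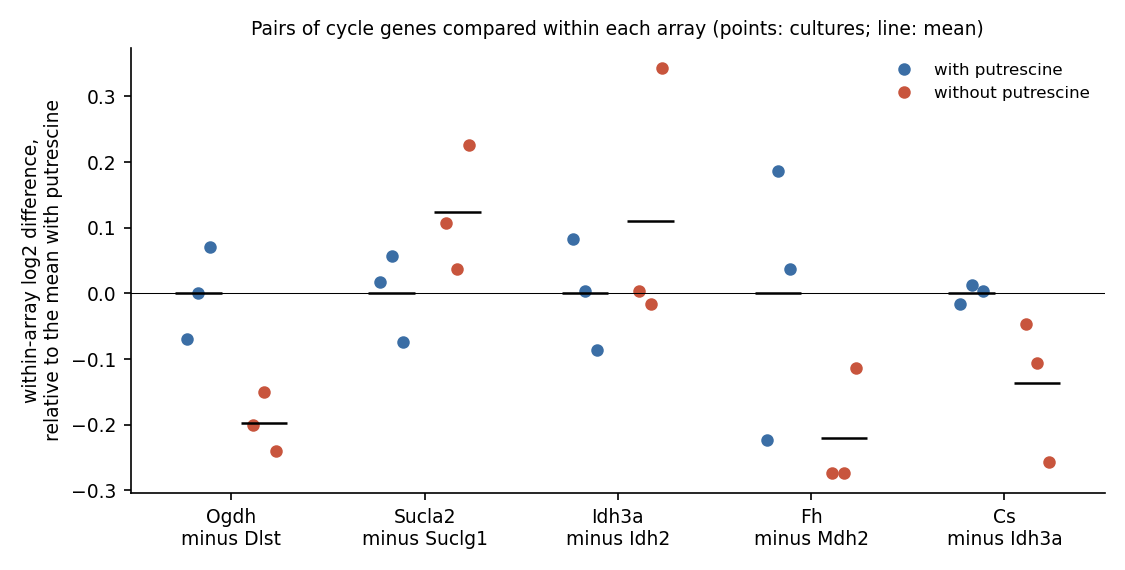
Log2 difference between 2 cycle genes on the same array (vertical axis, relative to the mean with putrescine), for 5 pairs, in cultures with (blue) and without (red) putrescine, with means as lines. The groups are separate for Ogdh minus Dlst and for Cs minus Idh3a and overlap for the other 3 pairs.

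The cytosolic isozymes of cycle enzymes did not pass the test either. Aco1, the cytosolic aconitase that doubles as an iron-regulatory protein, was at 8.47 ± 0.02 with and 8.59 ± 0.09 without putrescine (difference 0.12, limma adjusted p = 0.368). Idh1, a source of cytosolic NADPH, had a difference of 0.29 (SE 0.11, adjusted p = 0.108) with overlapping groups. Of the 11 alternatives it passed only that with a variance trend and robust moderation (0.0407). Mdh1, of the malate-aspartate shuttle, read 11.59 in all 3 cultures without putrescine against 11.46 ± 0.05 with it (SD, n = 3; difference 0.13, limma adjusted p = 0.278).

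Of 9 measured genes that build the cycle's enzymes and cofactors, 3 fell, 1 rose and 5 did not pass, with a median difference of -0.12. The share that passed, 44.4%, was near the 42.3% of named genes above the dim level. Nfs1, the cysteine desulfurase that supplies sulfur for iron-sulfur clusters, read 9.85, 10.02 and 10.05 with and 8.89, 9.13 and 9.16 without putrescine, 1.88-fold lower (log2 difference -0.91, SE 0.10, limma adjusted p = 0.000399). Iscu, the scaffold on which those clusters form, was 1.30-fold lower (-0.38, SE 0.08, adjusted p = 0.0105). Both sets of cultures were separate.

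Sdhaf3, an assembly factor of succinate dehydrogenase, fell from 5.62 ± 0.14 to 4.67 ± 0.31 (SD, n = 3), which is 1.93-fold (limma adjusted p = 0.00224), to a signal near the dim level. Sdhaf2, which helps attach the flavin to Sdha, rose by 0.25 (adjusted p = 0.0438). Its call was lost with any 1 array left out (adjusted p 0.0843 to 0.118) and after quantile normalization (0.0755). The lipoate synthase gene Lias, whose product the 2-oxoglutarate dehydrogenase complex needs, had -0.25 and did not pass (adjusted p = 0.123).

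Among listed genes of reactions that feed or drain the cycle, a larger share passed than among the cycle genes. The list held 29 symbols, of which 21 had a named probe set, and was chosen with earlier results of these data known. Of these 21 measured genes, 8 rose, 4 fell and 9 did not pass, so that 57.1% passed, against the backgrounds of 24.4% and 42.3% given above. The median difference was 0.21, and the median absolute difference 0.43. No test compared these genes with the cycle genes.

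Several genes of pyruvate entry by oxidation rose. Mpc2, a subunit of the mitochondrial pyruvate carrier, read 8.22, 8.26 and 8.39 with and 8.78, 8.75 and 8.80 without putrescine, 1.40-fold higher (limma adjusted p = 0.00311). Of the pyruvate dehydrogenase complex, the acetyltransferase gene Dlat was 1.30-fold higher (log2 difference 0.38, adjusted p = 0.0109) and Pdhx, which anchors the shared dihydrolipoyl dehydrogenase, rose by 0.58 on the log2 scale (adjusted p = 0.00333). Pdha1, the decarboxylating subunit, had 0.21 (adjusted p = 0.102) in its brighter probe set and 0.12 in the other.

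Of the malic enzymes 2 rose, and Me1, the cytosolic one, had a difference of -0.04 that did not pass. Me2, an NAD-linked mitochondrial malic enzyme that turns malate into pyruvate, was 1.41-fold higher, at 8.43, 8.45 and 8.40 with and 8.91, 8.89 and 8.97 without putrescine (limma adjusted p = 0.00195). Me3, its NADP-linked counterpart, rose by 0.43 (adjusted p = 0.0157), a call lost without no-putrescine replicate 1 (0.0576). A further probe set of Me3 rose by 0.40. The dicarboxylate carrier gene Slc25a10 was 1.73-fold higher (0.79, SE 0.11), Oxct1, which activates acetoacetate with succinyl-CoA, 1.67-fold higher (0.74, SE 0.08), and the cytosolic aspartate aminotransferase gene Got1 rose by 0.60. The 2-oxoglutarate carrier gene Slc25a11 had 0.11 (adjusted p = 0.408).

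The 4 genes that fell were Pc, Pck2, Pccb and Mmut. Pc, the pyruvate carboxylase that replenishes oxaloacetate, read 8.34, 8.23 and 8.41 with and 7.89, 7.95 and 7.83 without putrescine, 1.35-fold lower (limma adjusted p = 0.00633). Pck2, the mitochondrial phosphoenolpyruvate carboxykinase that consumes oxaloacetate, was 1.70-fold lower (-0.76, SE 0.10, adjusted p = 0.000734). The propionate route makes succinyl-CoA, and its carboxylase subunit gene Pccb was 1.76-fold lower (-0.82, SE 0.11) and the mutase gene Mmut 1.64-fold lower (-0.72, SE 0.11). Mcee, the epimerase between them, had a difference of 0.24 that did not pass (adjusted p = 0.083).

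**Figure D4:**
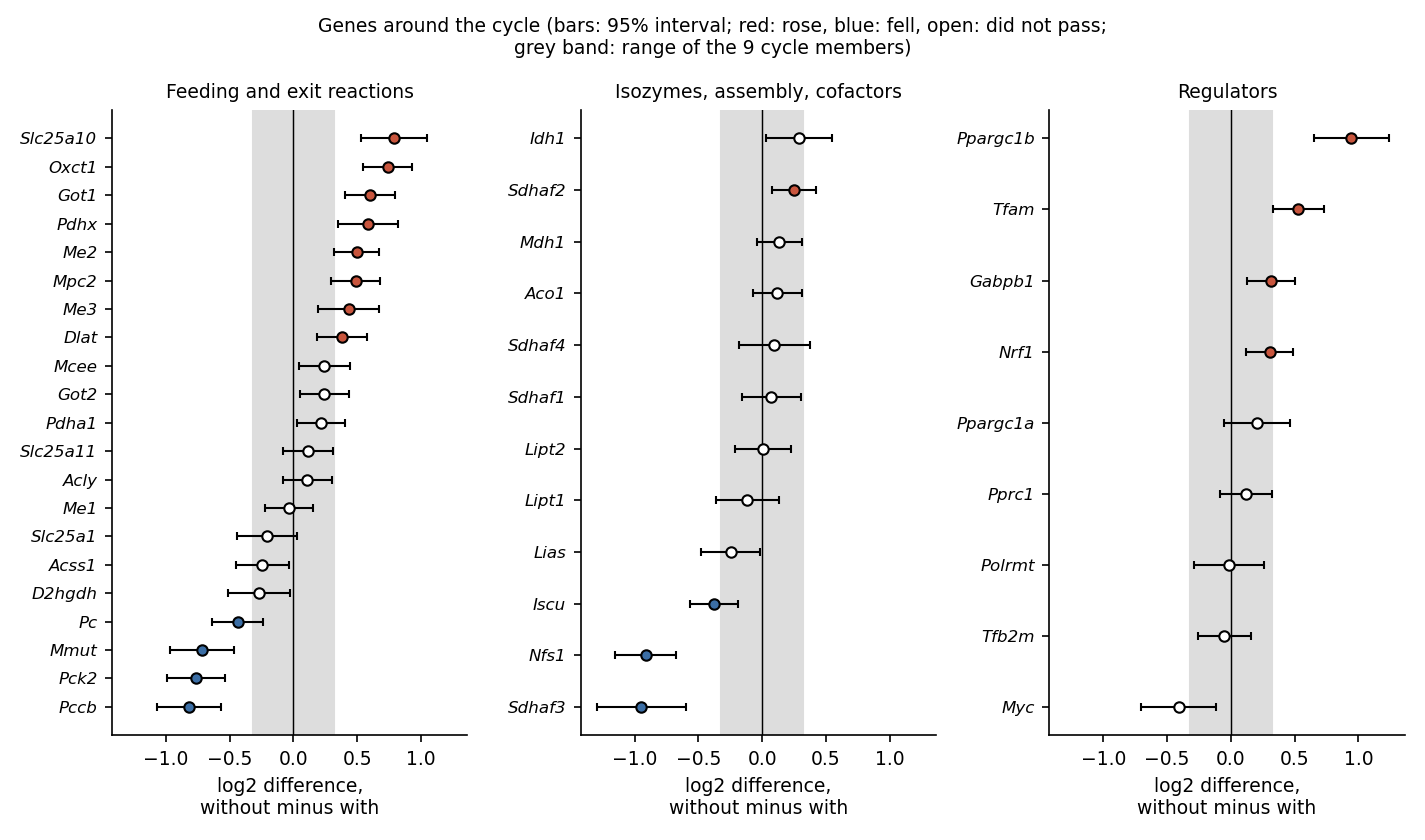
Log2 difference, without minus with putrescine (horizontal axes, points), with 95% intervals (bars), for genes that feed or drain the cycle, for isozymes, assembly and cofactor genes, and for regulators of mitochondrial gene expression. The grey band spans the 9 cycle genes, -0.32 to 0.32, and Slc25a10, Oxct1, Nfs1, Sdhaf3, Pccb, Pck2, Mmut and Ppargc1b lie far outside it.

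Among regulators of mitochondrial genes, 4 of 9 rose, 0 fell in limma and 5 did not pass, with a median difference of 0.21. Their share of 44.4% was likewise near the background of 42.3%. Ppargc1b, a coactivator of mitochondrial gene programmes, was 1.92-fold higher, at 5.55, 5.24 and 5.66 with and 6.60, 6.34 and 6.34 without putrescine (limma adjusted p = 0.000959). Its other 3 probe sets rose by 0.52, 0.65 and 0.83. Tfam, which packages and transcribes mitochondrial DNA, was 1.44-fold higher (0.53, SE 0.09, adjusted p = 0.00249).

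Nrf1, a nuclear activator of respiratory genes, rose by 0.30 (limma adjusted p = 0.0235). That call was lost without no-putrescine replicates 1 and 2 and with-putrescine replicates 2 and 3 (adjusted p up to 0.0887 over the alternatives). Gabpb1, a subunit of the GA-binding protein, rose by 0.31 (adjusted p = 0.0229), lost without replicates 1 and 3 of either group (up to 0.0739). Myc, chosen after its values were seen as the regulator lower at an unadjusted p under 0.05, had -0.41 (adjusted p = 0.0505, 0.0131 to 0.152 over the alternatives). Ppargc1a lay below the dim level, at 3.20 over the 6 arrays.

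Across the array, cultures of one group correlated at Pearson r of 0.9957 to 0.9962 and cultures of different groups at 0.9856 to 0.9878. Array medians lay between 4.92 and 4.98, and no array stood apart. All 5 measured markers of a fibroblast-like line lay above the dim level. Among them Vim, the mesenchymal filament gene vimentin, was at 12.09 with and 12.06 without putrescine. Of 8 epithelial, blood and endothelial markers 7 lay below the dim level, and Cdh1, at 4.39, rose by 0.29 (limma adjusted p = 0.0442). Of the 15 markers that set the dim level, Tnnt2 fell by 1.30 on the log2 scale and Star rose by 0.67. The other 13 did not pass. The mean signal of those 8 was 3.39 to 3.41 with and 3.40 to 3.47 without putrescine. That of the 5 fibroblast-like markers was at most 10.56 with and at least 10.95 without, with Lgals1, Tagln2 and Tmsb10 higher, and its part in the results was not tested.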

How the data were processed

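Log2 signals of 6 arrays, 1 value for each probe set, were used as deposited by the authors, who worked in Transcriptome Analysis Console, per the submitters' processing notes. The notes give no version, summarisation or normalization. Base 2 is inferred from the range of 1.55 to 13.66. Probe sets carrying 1 symbol in the platform annotation (16481) were named, and no coordinates are given because the build of the array design is not stated. limma 3.58.1 in R 4.3.3 fitted group as the only term to all 29700 probe sets, with eBayes, two-sided tests and Benjamini-Hochberg adjustment over all of them (threshold 0.05). The fit used the 5 remaining values of the 1 probe set with a missing value, which is no gene described here and was left out of the variance-trend fit. It was tested on simulated data. A gene was represented by its probe set with the highest mean. Named are all cycle genes, their other subunits and isozymes, and every called gene of the neighbouring lists. Genes of those lists that did not pass are named only in part. The cycle genes and lists were chosen with earlier results of these data known. The number of arrays limits precision. Each limma p-value sets a difference against the spread between these flasks, moderated by eBayes over all probe sets. Alternatives were quantile normalization, median centring, a filter on dim probe sets, a variance trend, a replicate block, the probe set with the smallest p, and each array left out.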

Additional observations from a re-analysis of the deposited data

How the results depend on the processing

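Over the array the number of probe sets past the threshold stayed between 5810 and 8064 under every alternative. Among the 9 cycle genes, 2 fell with a variance trend, with the dim filter and after quantile normalization, 0 with the replicate block, and 0 to 1 with 1 array left out. The number that rose was 1 after median centring, with the trend and with the dim filter, and 0 to 1 with 1 array left out. Of the 7 other subunits, 2 fell with the trend, and 1 rose after median centring, with the trend and with the dim filter (0 to 1 with 1 array left out). Of the isozyme, assembly and cofactor genes, 2 rose with the trend and 0 after quantile normalization, with the block or with any array left out. Among the regulators, 1 (Myc) fell under median centring, the trend, the dim filter, quantile normalization and the block, and 0 to 1 with 1 array left out, while 2 rose with the block and 2 to 3 with 1 array left out. The feeding and exit counts stayed within 1.5 times of 8 and 4. Differences near 0 changed sign: with 1 array left out, Cs ran from -0.0517 to 0.0133, Sdha from -0.0483 to 0.00167, Idh2 from -0.0583 to 0.0867 and Idh3a minus Idh2 from -0.00667 to 0.173, and Idh2 had -0.00667 after quantile normalization. The causes were not tested. The dim filter adjusts over fewer probe sets, and leaving out an array leaves fewer samples.

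The replicate number is not known to pair the flasks: deviations of same-numbered cultures from their group means correlated at 0.05, -0.10 and -0.02, and those of different numbers at -0.12 to 0.15. With the replicate block 6408 probe sets passed in place of 7240, and the calls of Ogdh (adjusted p = 0.0728), Nrf1 (0.062), Gabpb1 (0.0589) and Sdhaf2 (0.107) were lost.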
